A study of Graphilbum sp. with 6 samples.

Results

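Metal and inorganic ion transport genes were examined in hyphae of Graphilbum sp., a filamentous fungus of the order Ophiostomatales, kept with or without pine wilt nematodes. Members were the assembled features whose deposited best-hit description ended in a species of Sporothrix, Grosmannia, Ophiostoma or Esteya and held a word for an ion or a metal, such as iron, siderophore, zinc transporter, potassium, sulfate or metal. The words found 82 of the 4613 Ophiostomatales-hit features, out of 26694 features in all. They also caught genes that were set apart here. Of the 82, 18 matched through words such as replication, translocation or modification, which contain the letters of cation, or as a metallo-beta-lactamase. The metallo-beta-lactamase was set apart by its name, although other metallo-hydrolases were kept. The other 64 name an ion or a metal, and they are described first.

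In the nematode group, 3 libraries came from hyphae that shared 24 h with roughly 300 Bursaphelenchus xylophilus, the pine wilt nematode, which also feeds on fungi. The control group was 3 libraries of hyphae at the same 24 h with no nematode in the label. In both groups the fungus had grown for 5 days at 28 °C on potato dextrose agar and the mycelium had been washed in phosphate-buffered saline. No strain, genotype or age is named, and the labels say that mycelium was divided, not whether each library came from its own culture, so p-values measure only the spread between these libraries.

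Fungi take up iron along different routes. A cell-surface ferric reductase can reduce ferric iron, which a multicopper oxidase and an iron permease then import together, as worked out in Saccharomyces cerevisiae, and secreted siderophores carry ferric iron to dedicated importers. ZIP proteins bring zinc into the cytosol, cation diffusion facilitators move metals out of it, and the vacuole stores excess iron. Sulfate enters through permeases and is activated by a kinase and reduced before it becomes part of cysteine, while phosphate enters with protons, and potassium channels and transporters help set the membrane potential.

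Values are in TPM, a length-scaled share of transcripts, so levels can be compared between genes but the read depth is unknown. Ophiostomatales-hit features took 28.7% to 39.4% of TPM in the nematode libraries and 68.5% to 70.0% in the controls. Each library was therefore divided by the median ratio of these features to their geometric mean over the 6 libraries, and the results are called rescaled TPM. Such a share also falls when other features take more of the TPM, so it does not measure the amount of fungal RNA. What lowered it was not tested. Fewer cells of the fungus and less RNA per cell cannot be told apart in such samples, and the rescaling hides both. Control replicate 3 stood apart: its median absolute distance from its group mean was 0.239 on the log2 scale over the 4568 class features tested, against 0.0763 to 0.145 in the other 5 libraries. For that reason results are also given without it.

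No ion or metal gene passed the test. Of the 64, the 62 with at least 1 rescaled TPM in at least 3 libraries were tested, and 0 were higher and 0 lower with nematodes at an adjusted p under 0.05 (limma, Benjamini-Hochberg over all 4568 features). In the same test 0.613% of Ophiostomatales-hit features were higher and 0.0438% lower, 0.657% in either direction. At an unadjusted p under 0.05 there were 4 higher and 3 lower ion or metal genes, 11.3% of those tested, against 7.07% higher, 3.74% lower and 10.8% in either direction in the class. The median log2 fold change, nematode minus control, was 0.02 over the 62 genes and -0.03 over the class. For 55 of the 62 the log2 fold change was less than 0.5 from 0, against 4156 of the 4568 class features. For 53 of the 62, or 85.5%, the 95% interval lay inside 1 in both directions, against 85.7% of the class. The 2 genes not tested, an oxoglutarate/iron-dependent oxygenase (TRINITY_DN15441_c0_g1) and a sodium/solute symporter (TRINITY_DN22723_c0_g1), were listed at 0 in all 6 libraries.

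Libraries of the 2 groups did not overlap for 16 of the 62, with 10 higher and 6 lower with nematodes. Of all class features tested, 10.5% were so separated upwards and 7.79% downwards. Summed over the 64 genes, the level was 7298, 7062 and 7180 rescaled TPM in nematode replicates 1 to 3, against 7223, 7474 and 7561 in control replicates 1 to 3. The sums overlapped, as nematode replicate 1 lay above control replicate 1. Mean levels of the tested genes ran from 1.33 to 585.6 rescaled TPM with a median of 66.2, close to the class median of 72.0.

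**Figure D1:**
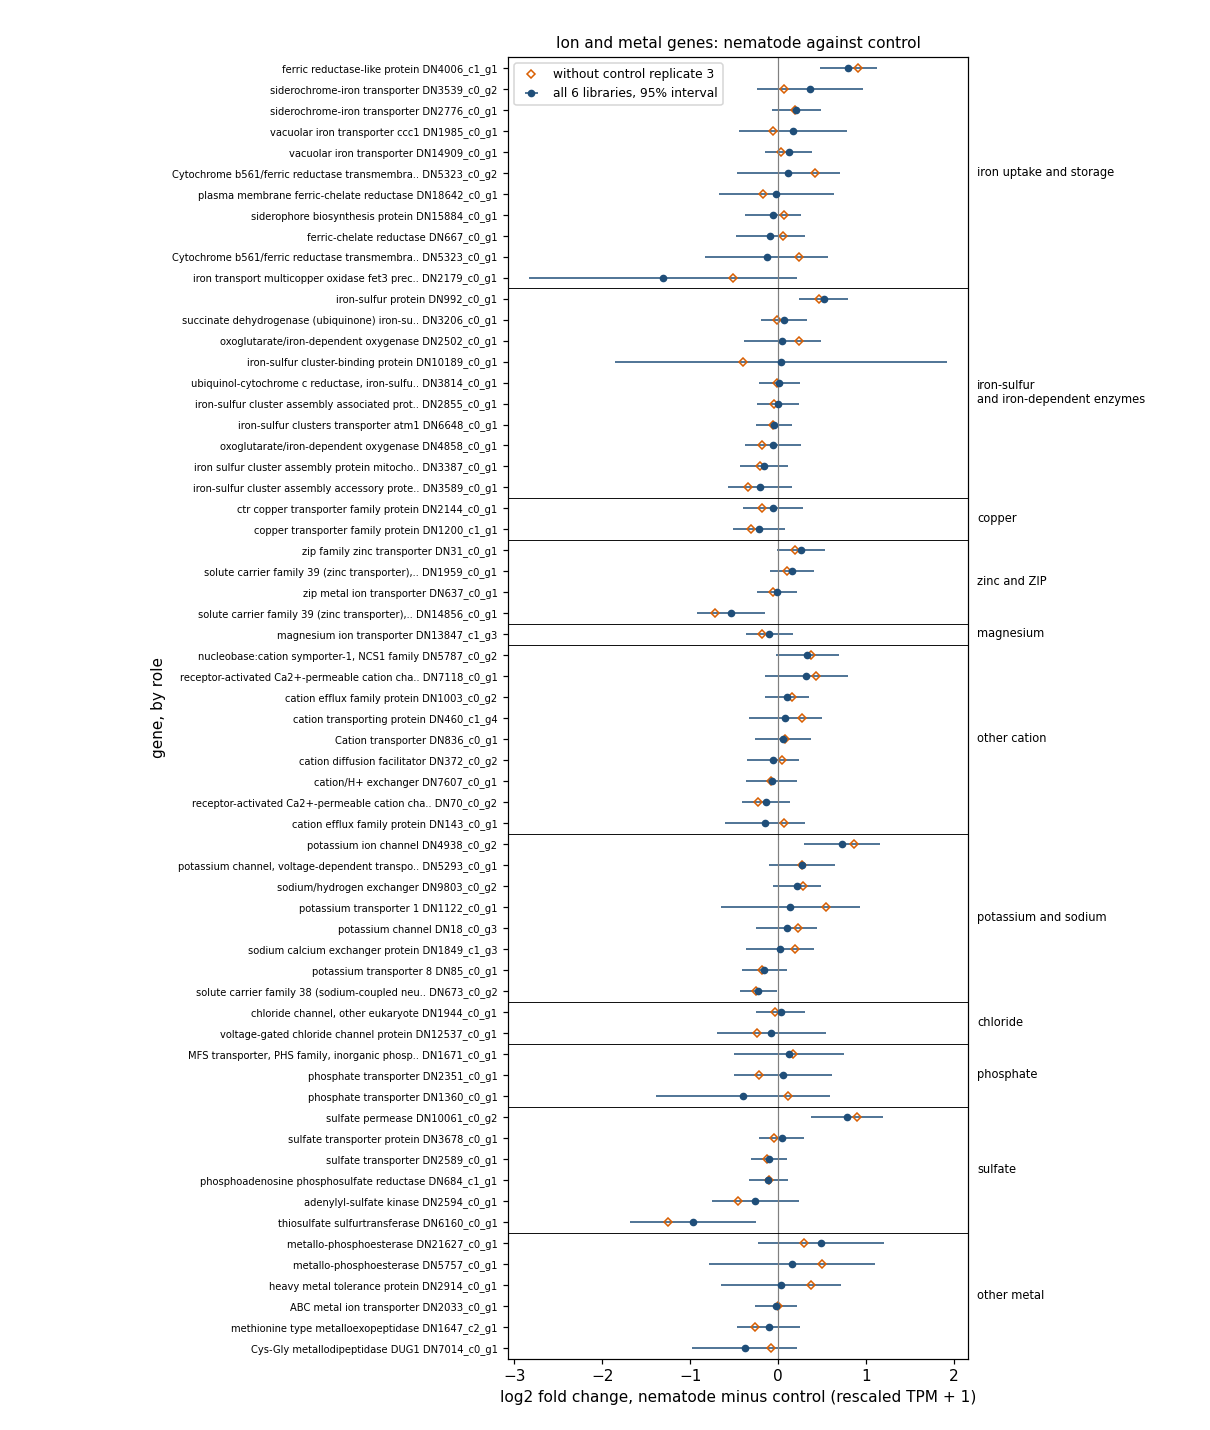
Log2 fold change of the 62 ion and metal genes, nematode minus control, on log2(rescaled TPM + 1). Filled points with bars are the estimates and 95% intervals from all 6 libraries, and open diamonds are the estimates without control replicate 3; most intervals cross 0, and the ferric reductase-like protein lies farthest above 0 (0.79).

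In iron uptake and storage 11 genes were tested, with a median log2 fold change of 0.12. The gene of smallest p among all 62 was a ferric reductase-like protein (TRINITY_DN4006_c1_g1), of the family that reduces ferric iron at the cell surface. It had 90.7, 107.5 and 92.1 rescaled TPM with nematodes, against 53.5, 48.6 and 64.8 in the controls. Every nematode library was above every control library, with the highest control being replicate 3. The log2 fold change was 0.79 ± 0.14 SE (95% interval 0.47 to 1.12), and the adjusted p of 0.0735 from limma did not pass. Leaving out control replicate 3 gave 0.91 and an adjusted p of 0.00555 in limma, while without any other single library the adjusted p was 0.216 to 0.312.

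None of the remaining ferric reductases had every nematode library above every control library. The ferric-chelate reductase TRINITY_DN667_c0_g1 averaged 22.9 ± 2.72 rescaled TPM with nematodes and 24.6 ± 4.61 in controls (SD, n = 3 each), with a log2 fold change of -0.09 (95% interval -0.48 to 0.30). A plasma membrane ferric-chelate reductase (TRINITY_DN18642_c0_g1) was near the lower end of detection, at 2.60 ± 0.645 with nematodes and 2.67 ± 0.758 in controls (SD, n = 3 each). A pair of cytochrome b561/ferric reductase transmembrane features came from 1 assembled component and may share reads. TRINITY_DN5323_c0_g2 had 60.5, 68.6 and 61.6 rescaled TPM with nematodes, against 47.0, 47.6 and 89.1 in controls, and TRINITY_DN5323_c0_g1 had 38.7, 39.2 and 39.3 with nematodes, against 31.3, 34.9 and 71.8 in controls. In both, all nematode libraries lay between control replicates 1 and 2 below and control replicate 3 above. With that library left out, TRINITY_DN5323_c0_g2 had a log2 fold change of 0.42 and an adjusted p of 0.0311 in limma, against 0.12 and 0.892 with it.

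The iron transport multicopper oxidase fet3 precursor (TRINITY_DN2179_c0_g1), the oxidase partner of the iron permease, had the lowest log2 fold change of the 62 genes. It had 4.17, 5.37 and 2.79 rescaled TPM with nematodes, against 5.89, 6.44 and 35.9 in the controls. The groups did not overlap, and control replicate 3 was far above the other controls. The log2 fold change of -1.31 ± 0.64 SE (adjusted p = 0.538, limma) became -0.52 (adjusted p = 0.211) without that library. Siderophore genes did not pass either: the siderophore biosynthesis protein TRINITY_DN15884_c0_g1 averaged 44.7 ± 1.21 with nematodes and 47.0 ± 7.87 in controls (SD, n = 3 each). A pair of siderochrome-iron transporters, importers of iron-loaded siderophores, had log2 fold changes of 0.21 (TRINITY_DN2776_c0_g1) and 0.36 (TRINITY_DN3539_c0_g2). Both had nematode libraries above all controls. The first had 25.7 to 31.0 with nematodes against 23.3 to 25.0 in controls. The second had 16.2 to 17.0 with nematodes against 8.07 to 16.1 in controls, where control replicate 3 was the lowest. Without control replicate 3 the log2 fold changes were 0.19 (adjusted p = 0.284, limma) and 0.07 (adjusted p = 0.712). The vacuolar iron transporters, which load iron into the vacuole, averaged 181.6 ± 11.6 with nematodes and 167.3 ± 17.1 in controls (TRINITY_DN14909_c0_g1), and 16.1 ± 3.49 with nematodes and 14.4 ± 4.31 in controls (TRINITY_DN1985_c0_g1; SD, n = 3 each).

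Iron-sulfur proteins and iron-dependent oxygenases made up 11 further genes, of which 10 were tested, and in 9 the log2 fold change was less than 0.5 from 0. The exception was an iron-sulfur protein (TRINITY_DN992_c0_g1) at 95.8, 83.9 and 104.1 rescaled TPM with nematodes, against 66.5, 69.7 and 61.0 in controls. Its groups did not overlap and its log2 fold change was 0.51 ± 0.12 SE (adjusted p = 0.150, limma; 0.0342 without control replicate 3). Genes for assembly of iron-sulfur clusters overlapped between groups: TRINITY_DN3387_c0_g1, TRINITY_DN3589_c0_g1 and TRINITY_DN2855_c0_g1 had log2 fold changes of -0.16, -0.20 and 0.00. Without control replicate 3 these were -0.20, -0.35 and -0.05, with a lowest adjusted p of 0.0558 (TRINITY_DN3589_c0_g1, limma). The cluster exporter of mitochondria, atm1 (TRINITY_DN6648_c0_g1), averaged 64.6 ± 1.01 with nematodes and 67.1 ± 2.05 in controls (SD, n = 3 each). The most abundant iron genes were the iron-sulfur subunits of respiratory complexes, ubiquinol-cytochrome c reductase (TRINITY_DN3814_c0_g1; 544.0 rescaled TPM with nematodes and 538.8 in controls) and succinate dehydrogenase (TRINITY_DN3206_c0_g1; 523.8 with nematodes and 501.0 in controls), with 95% intervals of -0.21 to 0.24 and -0.19 to 0.33. An iron-sulfur cluster-binding protein (TRINITY_DN10189_c0_g1) was listed at 0 in nematode replicate 3 and control replicates 2 and 3 and reached 4.94 in control replicate 1, and its 95% interval ran from -1.86 to 1.92.

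**Figure D2:**
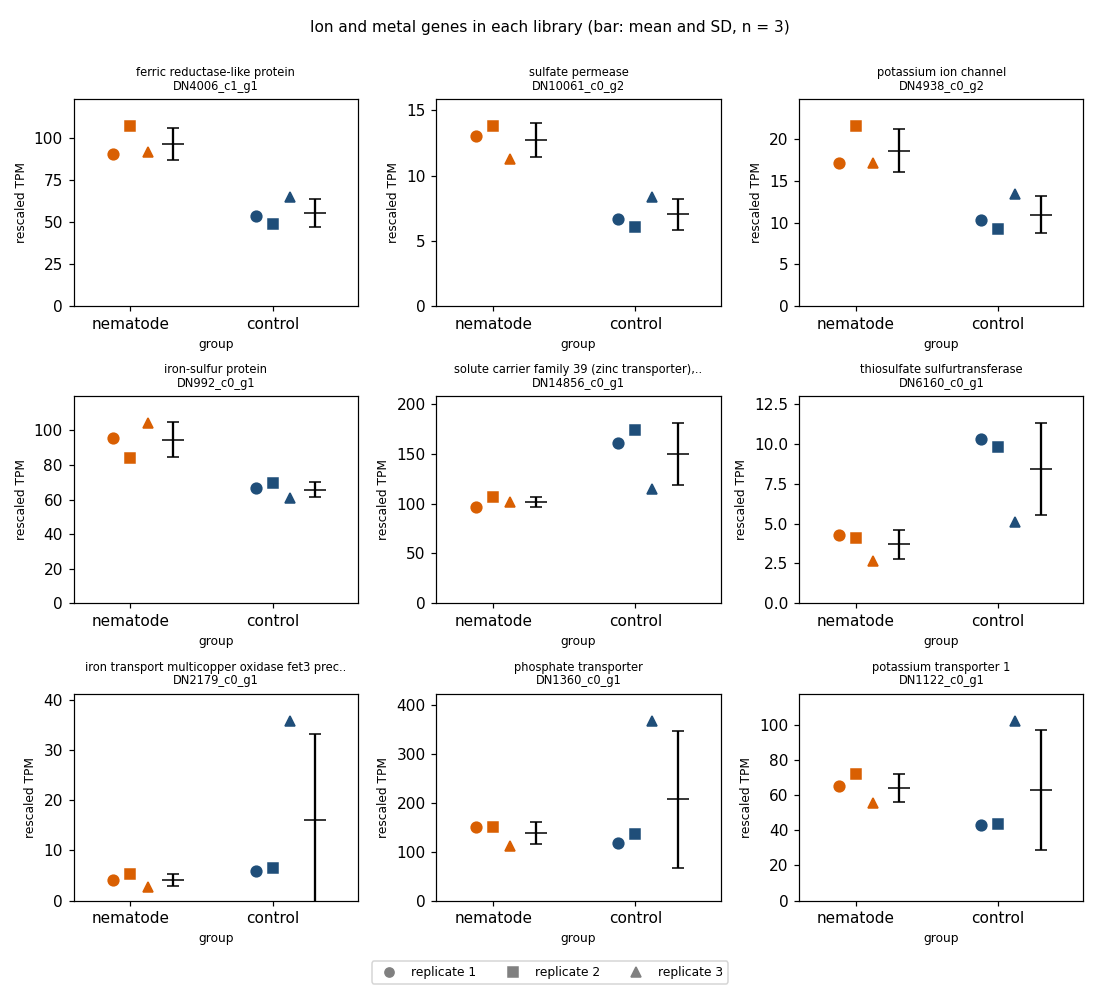
Rescaled TPM (vertical axes, each from 0) of genes in the 3 nematode and 3 control libraries; symbols mark the replicate number and black bars the mean and SD (n = 3), drawn down to 0 at most. In the top row and for the iron-sulfur protein the nematode libraries are above all controls, for the zinc transporter, the sulfurtransferase and the fet3 precursor they are below all controls, and in the bottom row control replicate 3 is the highest library.

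Zinc transporters differed in sign, and none passed. The solute carrier family 39 member 1/2/3 (TRINITY_DN14856_c0_g1), a ZIP-family protein, had 96.4, 106.5 and 101.2 rescaled TPM with nematodes, against 160.4, 173.6 and 114.6 in controls. All nematode libraries were below all controls, and control replicate 3 was the nearest to them. The log2 fold change was -0.54 ± 0.16 SE (adjusted p = 0.301, limma), and -0.71 with an adjusted p of 0.00555 without control replicate 3. The zip family zinc transporter TRINITY_DN31_c0_g1 had 89.1, 73.9 and 83.6 with nematodes, against 70.8, 72.9 and 61.6 in controls, a difference of 0.26 ± 0.12 SE in log2 (adjusted p = 0.489). Its separation was narrow, since nematode replicate 2 only just exceeded control replicate 2. Member 9 of the same carrier family (TRINITY_DN1959_c0_g1) had a log2 fold change of 0.16, also with no overlap between groups, and the zip metal ion transporter TRINITY_DN637_c0_g1 one of -0.01 (95% interval -0.24 to 0.21).

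Copper, magnesium and general cation carriers differed little between groups. The ctr copper transporter (TRINITY_DN2144_c0_g1), of the family that imports reduced copper, was abundant at 319.0 ± 28.8 rescaled TPM with nematodes and 334.4 ± 53.2 in controls (SD, n = 3 each). A second copper transporter (TRINITY_DN1200_c1_g1) averaged 96.3 ± 8.34 with nematodes and 112.3 ± 13.3 in controls (SD, n = 3 each; log2 fold change -0.22, adjusted p = 0.597, limma). The only magnesium gene, TRINITY_DN13847_c1_g3, averaged 86.0 ± 5.58 with nematodes and 92.5 ± 9.31 in controls (SD, n = 3 each), and no member's description named manganese. All 9 general cation genes had log2 fold changes less than 0.5 from 0 and 95% intervals inside 1 in both directions. Among them the nucleobase:cation symporter (TRINITY_DN5787_c0_g2), which carries nucleobases together with a cation, had 241.1, 351.1 and 280.5 with nematodes, against 231.0, 213.0 and 241.1 in controls. Its lowest nematode library was level with its highest control to the digits shown, and its log2 fold change was 0.33 ± 0.15 SE (adjusted p = 0.496). A pair of receptor-activated calcium-permeable cation channels had log2 fold changes of 0.32 (TRINITY_DN7118_c0_g1) and -0.14 (TRINITY_DN70_c0_g2). The cation efflux proteins and the cation diffusion facilitator, exporters of zinc and related metals, had log2 fold changes of 0.10 (TRINITY_DN1003_c0_g2), -0.15 (TRINITY_DN143_c0_g1) and -0.06 (TRINITY_DN372_c0_g2).

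Potassium and sodium genes were tested in 8 of 9 cases, with 6 positive and 2 negative log2 fold changes. A potassium ion channel (TRINITY_DN4938_c0_g2) had 17.1, 21.6 and 17.2 rescaled TPM with nematodes, against 10.3, 9.17 and 13.4 in controls. The nematode libraries were all above the controls, by a difference of 0.72 ± 0.18 SE in log2 (adjusted p = 0.198, limma; 0.0199 without control replicate 3). The voltage-dependent potassium channel TRINITY_DN5293_c0_g1 was also separated, at 40.2, 41.6 and 58.9 with nematodes, against 37.9, 38.6 and 37.8 in controls, but nematode replicate 3 stood above the other libraries, and the log2 fold change was 0.27 with it and 0.10 without it. Potassium transporter 1 (TRINITY_DN1122_c0_g1) had 64.9, 71.8 and 55.7 with nematodes, against 43.2, 43.7 and 102.4 in controls. The nematode libraries again lay between control replicates 1 and 2 below and control replicate 3 above, and the log2 fold change was 0.14 (adjusted p = 0.907) with that library and 0.55 (adjusted p = 0.0308) without it. Potassium transporter 8 (TRINITY_DN85_c0_g1) was lower on average, 94.1 ± 8.75 with nematodes and 104.8 ± 6.17 in controls (SD, n = 3 each), with overlapping libraries. The sodium-coupled amino acid carrier of family 38 (TRINITY_DN673_c0_g2) had 105.1, 95.1 and 102.5 with nematodes, against 121.4, 119.0 and 113.6 in controls. This was a small separation downwards, with a difference of -0.22 ± 0.09 SE in log2 (adjusted p = 0.446). Sodium/hydrogen exchange (TRINITY_DN9803_c0_g2; 0.22) and sodium/calcium exchange (TRINITY_DN1849_c1_g3; 0.02) overlapped between groups.

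Anion genes included the most abundant transporter of the set, the phosphate transporter TRINITY_DN2351_c0_g1. It had 604.9, 534.5 and 592.4 rescaled TPM with nematodes, against 646.0, 698.7 and 378.0 in controls. A second phosphate transporter (TRINITY_DN1360_c0_g1) had 150.1, 150.5 and 112.2 with nematodes, against 117.6, 135.0 and 367.3 in controls. Control replicate 3 was thus the lowest library for the first gene and the highest for the second, on opposite sides of the other 5. The inorganic phosphate transporter of the PHS family (TRINITY_DN1671_c0_g1), a proton-coupled importer, had 305.8, 195.0 and 423.2 with nematodes, against 252.8, 268.8 and 285.6 in controls. Here the nematode libraries spread the most, with a 95% interval of the log2 fold change from -0.50 to 0.75. The chloride channels TRINITY_DN1944_c0_g1 and TRINITY_DN12537_c0_g1 had log2 fold changes of 0.03 and -0.08.

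Among 6 sulfate genes, the nematode libraries were above all controls for 1 and below all controls for 3. Of all class features tested, 10.5% were above and 7.79% below. The 6 genes are too few to read a tendency from, and none passed the threshold. The sulfate permease TRINITY_DN10061_c0_g2 had 13.1, 13.8 and 11.3 rescaled TPM with nematodes, against 6.64, 6.08 and 8.32 in controls. The groups did not overlap and the log2 fold change was 0.78 ± 0.17 SE (adjusted p = 0.146, limma; 0.0205 without control replicate 3). The more abundant sulfate transporters lay near 0: TRINITY_DN2589_c0_g1, narrowly below all controls, had a log2 fold change of -0.10 (95% interval -0.31 to 0.10), and TRINITY_DN3678_c0_g1 one of 0.04 (-0.22 to 0.29). Adenylyl-sulfate kinase (TRINITY_DN2594_c0_g1), which activates sulfate, and phosphoadenosine phosphosulfate reductase (TRINITY_DN684_c1_g1), which reduces it, had log2 fold changes of -0.26 and -0.11, the second with no overlap between groups. Thiosulfate sulfurtransferase (TRINITY_DN6160_c0_g1), a sulfur-transfer enzyme and not a transporter, had 4.31, 4.11 and 2.67 with nematodes, against 10.3, 9.81 and 5.08 in controls. Every nematode library was below every control, with a difference of -0.97 ± 0.30 SE in log2 (adjusted p = 0.308; 0.0227 without control replicate 3).

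The metal words also held hydrolases and transporters. The Cys-Gly metallodipeptidase DUG1 (TRINITY_DN7014_c0_g1), which cleaves a dipeptide in glutathione breakdown in S. cerevisiae, had the highest mean of the set over the 6 libraries. It had 493.3, 530.7 and 465.1 rescaled TPM with nematodes, against 496.4, 552.2 and 975.9 in controls. In the nematode libraries alone the phosphate transporter TRINITY_DN2351_c0_g1 was higher, at a mean of 577.3 against 496.4 for DUG1. The heavy metal tolerance protein (TRINITY_DN2914_c0_g1) had 66.0, 83.7 and 67.0 with nematodes, against 57.1, 53.4 and 113.7 in controls. Both were highest in control replicate 3, and their log2 fold changes were -0.38 and 0.03 with it and -0.08 and 0.37 without it. The ABC metal ion transporter TRINITY_DN2033_c0_g1 averaged 47.2 ± 3.46 with nematodes and 48.1 ± 2.12 in controls (SD, n = 3 each). The 2 metallo-phosphoesterases and a methionine type metalloexopeptidase overlapped between groups.

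**Figure D3:**
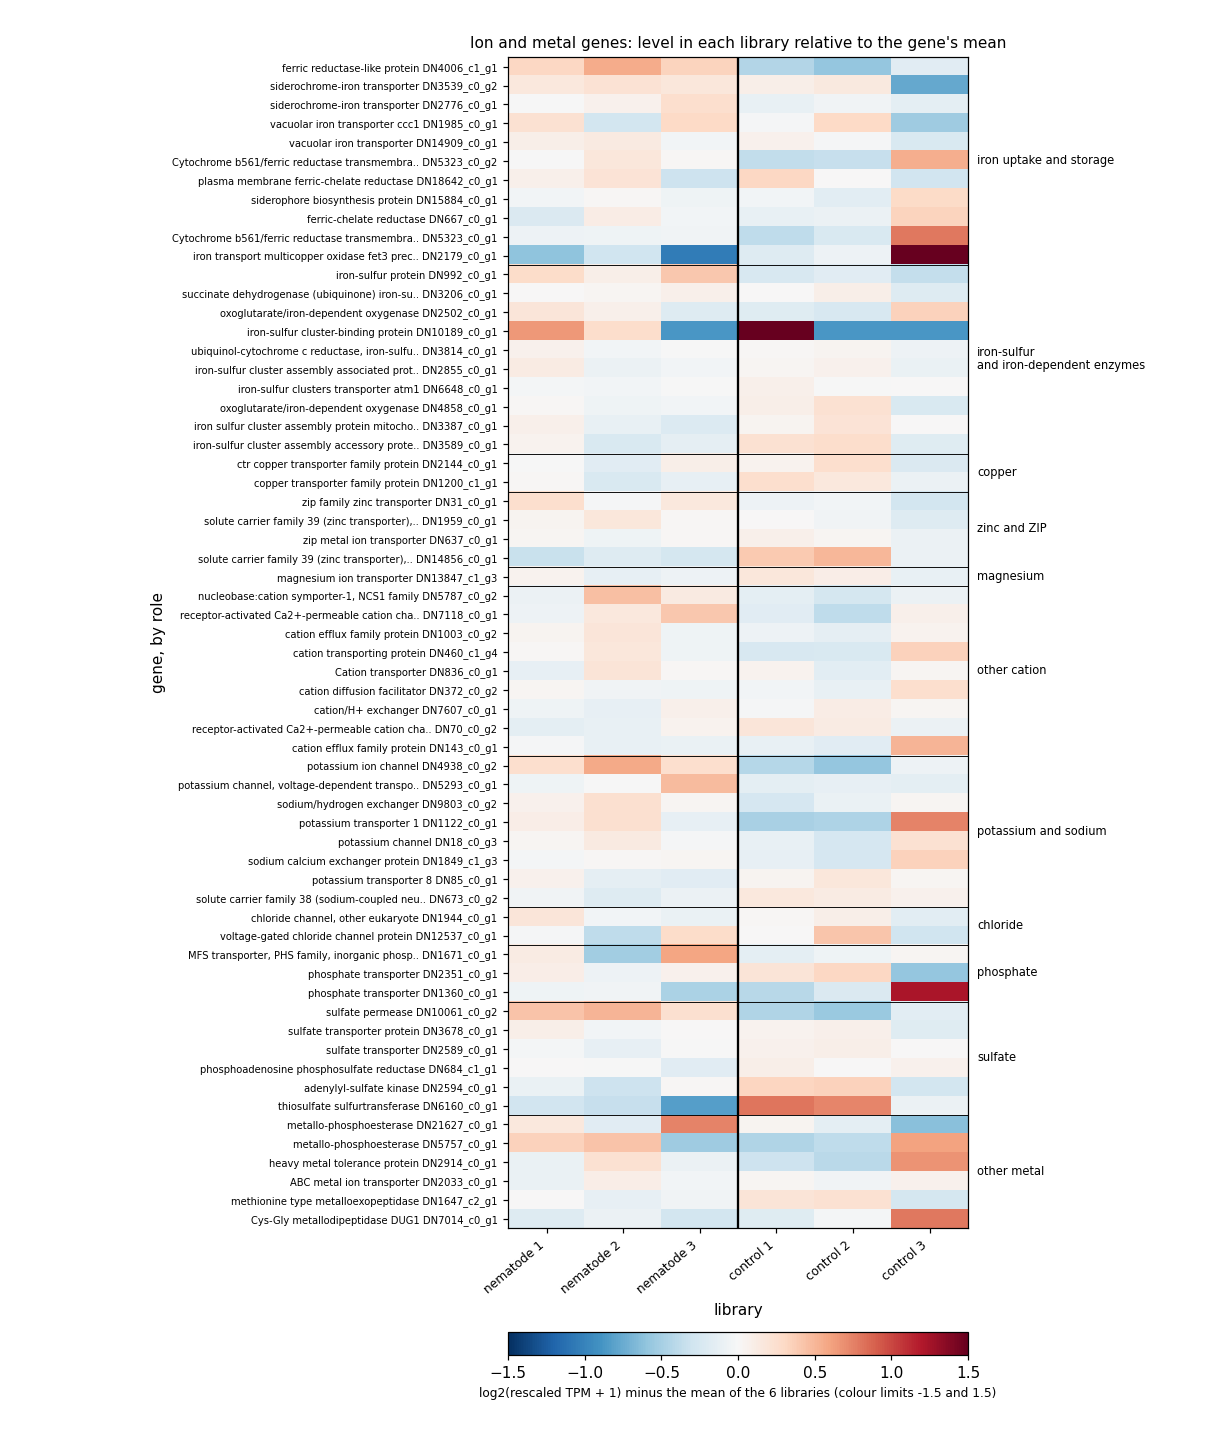
Level of each of the 62 ion and metal genes in each library as log2(rescaled TPM + 1) minus the gene's mean over the 6 libraries, grouped by role, nematode libraries left of the line. Colours stop at 1.5 in both directions. The nematode libraries are above all controls for 10 genes and below all controls for 6, and the groups overlap for the rest. The column of control replicate 3 holds many of the strongest colours, the fet3 precursor and the phosphate transporter TRINITY_DN1360_c0_g1 among them.

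Control replicate 3 differed from the mean of control replicates 1 and 2 by at least 0.5 on the log2 scale for 21 of the 62 genes, upwards in 12 and downwards in 9. That is 33.9% of them, against 34.3% of the class. The fet3 precursor (2.36), the phosphate transporter TRINITY_DN1360_c0_g1 (1.54), potassium transporter 1 (1.22) and the b561 reductase TRINITY_DN5323_c0_g1 (1.10) were the highest there. All 3 nematode libraries lay between control replicate 3 and the other controls for 11 of the 62 genes, 17.7%, against 22.5% of the class. Without control replicate 3, 6 ion or metal genes were higher and 2 lower at an adjusted p under 0.05 in limma, against 7.38% and 6.83% of the class. The 6 were the ferric reductase-like protein, the sulfate permease, the potassium ion channel, potassium transporter 1, the b561 reductase TRINITY_DN5323_c0_g2 and the iron-sulfur protein, and the 2 were the family 39 zinc transporter and thiosulfate sulfurtransferase. What set control replicate 3 apart was not tested.

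The 18 genes set apart, nearly all caught by shared letters, were all tested, and 0 passed the threshold. DNA replication licensing factor mcm3 (TRINITY_DN7290_c0_g1), part of the helicase that opens replication origins, came nearest: 49.9, 60.0 and 55.8 rescaled TPM with nematodes, against 33.2, 32.9 and 36.1 in controls. The groups were well apart, with a difference of 0.68 ± 0.11 SE in log2 (adjusted p = 0.0608, limma; 0.0111 without control replicate 3). Sec62 (TRINITY_DN4142_c0_g1), which helps proteins into the endoplasmic reticulum, had 189.4, 210.8 and 194.1 with nematodes, against 136.0, 142.0 and 127.2 in controls (log2 fold change 0.55 ± 0.09 SE, adjusted p = 0.0735). The replication regulator sld2 (TRINITY_DN5907_c0_g1) and mcm6 (TRINITY_DN200_c0_g2) had log2 fold changes of 0.60 and 0.51. In all, 15 of these 18 had a positive log2 fold change, against 2045 of 4568 class features, and the median was 0.26, against -0.03 in the class. The nematode libraries were above all controls for 8 of the 18, against 10.5% of the class. Without control replicate 3, 8 of the 18 were higher and 0 lower at an adjusted p under 0.05 in limma, against 7.38% and 6.83% of the class. Since they are not ion genes, they were left out of the counts above; over all 80 members tested the median was 0.05.

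Features outside the members, taken by a list of words for ion transport and metal proteins, had no call either. Of 30 such Ophiostomatales-hit features, 0 were higher and 0 lower at an adjusted p under 0.05, against 0.657% called in the class, with a median log2 fold change of 0.00. The proton pump gene for the 16 kDa proteolipid of the vacuolar ATPase (TRINITY_DN3746_c0_g1) had 494.8, 511.1 and 513.9 rescaled TPM with nematodes, against 422.7, 427.6 and 419.9 in controls (log2 fold change 0.26 ± 0.09 SE, adjusted p = 0.350, limma). A copper fist protein (TRINITY_DN2763_c0_g1), of a family of copper-responsive regulators, had 44.6, 49.5 and 37.9 with nematodes, against 28.9, 31.0 and 36.2 in controls (log2 fold change 0.44, adjusted p = 0.319). Coproporphyrinogen oxidase of heme synthesis (TRINITY_DN16450_c0_g1) had 53.4, 53.8 and 49.6 with nematodes, against 69.0, 64.9 and 57.6 in controls (log2 fold change -0.28, adjusted p = 0.417). These 3 of the 30 were the genes of the list with an unadjusted p under 0.05, against 10.8% of the class. Calcium transport was represented by the channel subunits cch1 and mid1 and a p-type calcium ATPase, with log2 fold changes of 0.34, 0.06 and 0.05. Not all genes of the list handle ions: it held copper amine oxidases, superoxide dismutases and enzymes of heme synthesis. Its words p-type also caught a phospholipid-translocating ATPase (TRINITY_DN3994_c0_g1) and a peptidyl-prolyl isomerase (TRINITY_DN5013_c0_g1).

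The calls depended on the scaling. In TPM as deposited, where the whole class took a smaller share with nematodes, 48 of 61 ion or metal genes were lower and 0 higher (adjusted p under 0.05, limma), against 82.8% lower and 0.583% higher in the class. The median log2 fold change was then -0.79 over the genes and -0.82 over the class, so relative to the class the genes lay near 0. With each library divided by its class total, the ferric reductase-like protein (0.93, adjusted p = 0.0494) and the iron-sulfur protein (0.66, adjusted p = 0.0494) passed in limma, against 1.05% higher and 0 lower in the class, whose median was 0.11. Under quantile normalization the ferric reductase-like protein alone of the 62 passed (0.80, adjusted p = 0.0421), against 0.679% of the class. In deposited TPM the ferric reductase-like protein was listed at 26.5, 46.9 and 36.6 TPM with nematodes and 35.8, 31.3 and 43.3 TPM in controls, so its libraries overlapped before rescaling.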

How the data were processed

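RNA from 3 nematode and 3 control libraries was analysed, with groups and replicate numbers taken from the sample titles. The authors deposited 1 table of TPM per assembled feature, with a best-hit description for 13460 features. Feature names have the Trinity form, per the file headers and names; for the assembler, aligner, quantifier and versions, the sources used here name nothing. TPM keeps no depth, so no counting interval is given, and no genome was used.

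Rescaled TPM are deposited values divided by the median ratio over the 4505 class features above 0 in every library, with class totals averaging 1000000. They were tested as log2(rescaled TPM + 1) with limma 3.58.1 in R 4.3.3 (lmFit, eBayes with a trend), nematode minus control, on features with at least 1 rescaled TPM in at least 3 libraries. The Benjamini-Hochberg adjustment ran over 4568 features, and the threshold was 0.05. The log2(value + 1) scale understates changes of low genes. An exact permutation of 3 against 3 libraries cannot go below 0.1.

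The members, word lists and roles were chosen with earlier results of these data known; the split of the iron genes was made after seeing values. Named genes were the 6 members of smallest p in each direction and, in each role, the most abundant and that of smallest p; others were named after their values were seen. Nematode keywords matched 0 descriptions, which does not show that nematode RNA was absent, as the origin of the features was not tested. The fit was tested on simulated data. Alternatives were pseudocounts of 0.1 and 5, other filters and scalings, an unweighted trimmed mean of M values (TMM), other eBayes options (statmod 1.5.0), a replicate block and each library left out.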

Additional observations from a re-analysis of the deposited data

Results flagged for a closer look

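Features outside the comparisons above also held the same words. They matched 109 features with a best hit outside Ophiostomatales. Of these, 81 reached 1 TPM in each of the 3 nematode libraries but in no control, while 0 reached it in all 3 controls but in no nematode library. In control replicates 1 to 3, 19, 13 and 10 of the 109 reached 1 TPM. Some of those were at 0 in every nematode library, such as a succinate dehydrogenase subunit (TRINITY_DN10933_c0_g1; 5.45, 2.66 and 0 TPM in control replicates 1 to 3). Of the 109, 23 shared only letters with the words or were named as metallo-dependent phosphatases or a metallo-beta-lactamase. With 20 of these 23 among the 81, this leaves 61 of 86 that name an ion or a metal, or 70.9%. This pattern was common in the whole table: it held for 5829 of 8847 described features with a best hit outside Ophiostomatales, or 65.9%, so nothing particular to ion words is read from it. In deposited TPM the 86 summed to 1018, 890.8 and 878.9 in nematode replicates 1 to 3, against 340.8, 306.7 and 285.4 in control replicates 1 to 3. The 23 summed to 583.7, 500.2 and 466.7 in the nematode libraries, against 26.9, 23.1 and 14.8 in the controls. Potassium and sodium words were the most numerous, with 32 features summing to 149.8, 120.9 and 130.9 TPM with nematodes, against 1.03, 0.07 and 0 in the controls. The 5 chloride features reached 31.6, 23.4 and 23.0 TPM with nematodes and were listed at 0 in every control. Zinc/iron permeases with hits in Basidiobolus (TRINITY_DN4528_c0_g2; 46.4, 35.9 and 30.6 TPM with nematodes) and Absidia (TRINITY_DN7786_c0_g1; 35.6, 27.6 and 28.0 TPM) were listed at 0 in every control. An adenylylsulfate kinase with a hit in Gonapodya (TRINITY_DN2749_c0_g2) had 98.4, 93.2 and 81.0 TPM with nematodes, against 0, 0 and 0.05 in the controls. The organism that these transcripts came from was not tested.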

How the results depend on the processing

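Neither pseudocount, filter, TMM, eBayes option nor replicate block gave a call among the members. Dividing by the class total gave 5 members higher, 2 of them ion or metal genes (medians 0.19 and 0.15), with 1.05% of the class higher. Quantile normalization gave 2 and 1 (0.679% of the class). TPM as deposited gave 58 members lower, 48 of them ion or metal genes (medians -0.76 and -0.79), with 82.8% of the class lower and a class median of -0.82. Leaving out 1 library gave 0 to 14 members and 0 to 6 ion or metal genes higher, and 0 to 2 lower in both sets; calls came only without control replicate 3, where 7.38% of the class was higher and 6.83% lower. Median log2 fold changes were then 0.02 to 0.07 over the members and -0.0276 (without control replicate 1) to 0.0195 (without nematode replicate 3) over the ion and metal genes.
No pairing of the libraries by replicate number was seen. Deviations of same-numbered libraries correlated at 0.148, -0.434 and -0.281, and not every library correlated best with its own number. Deviations from a mean of 3 libraries offset one another, so these values cannot exclude a pairing. The replicate block gave 0 higher and 0 lower members, and 12 and 0 in the class.
In TPM as deposited, 26 members with a positive log2 fold change after rescaling were lower past the threshold, a scaling in which the whole class shifts down.
Their log2 fold changes there were those of TRINITY_DN1003_c0_g2 (-0.72), TRINITY_DN1122_c0_g1 (-0.67), TRINITY_DN1479_c0_g1 (-0.71), TRINITY_DN14909_c0_g1 (-0.71), TRINITY_DN1671_c0_g1 (-0.70), TRINITY_DN1849_c1_g3 (-0.79), TRINITY_DN18_c0_g3 (-0.70), TRINITY_DN1944_c0_g1 (-0.79), TRINITY_DN1959_c0_g1 (-0.65), TRINITY_DN2351_c0_g1 (-0.78), TRINITY_DN2403_c1_g1 (-0.59), TRINITY_DN2502_c0_g1 (-0.78), TRINITY_DN2914_c0_g1 (-0.78), TRINITY_DN2937_c0_g1 (-0.60), TRINITY_DN31_c0_g1 (-0.56), TRINITY_DN3206_c0_g1 (-0.76), TRINITY_DN3678_c0_g1 (-0.77), TRINITY_DN3814_c0_g1 (-0.82), TRINITY_DN3955_c0_g1 (-0.78), TRINITY_DN431_c0_g2 (-0.54), TRINITY_DN460_c1_g4 (-0.75), TRINITY_DN5323_c0_g2 (-0.69), TRINITY_DN8052_c0_g2 (-0.59), TRINITY_DN836_c0_g1 (-0.71), TRINITY_DN9803_c0_g2 (-0.60), TRINITY_DN9929_c1_g1 (-0.74).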

Other observations

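Features with ion or metal words and hits in other fungi were also present in the controls. Of the 109, 7 had at least 1 TPM in all 6 libraries, 6 of which name an ion or a metal. The same held for 900 of 8847 described features with a best hit outside Ophiostomatales. The 7 were placed on the scale of the class with the same library factors, without a test. That scale assumes that they come from the same fungus as the class, which was not tested. A plasma membrane iron permease (TRINITY_DN1622_c0_g1, best hit in Phaeoacremonium) is named for the family that imports iron together with a multicopper oxidase. It had 92.3, 83.8 and 94.1 rescaled TPM with nematodes, against 92.3, 101.9 and 76.0 in controls. Its control replicate 3 was the lowest control, whereas that of the fet3 precursor was the highest. A siderophore iron transporter (TRINITY_DN14865_c0_g1, best hit in Phaeoacremonium) had 13.4, 17.0 and 11.6 with nematodes, against 10.3, 16.0 and 79.6 in controls, and so stood high in the same library as the fet3 precursor. A Ctr copper transporter (TRINITY_DN328_c0_g3, best hit in Coniochaeta) had 83.5, 78.0 and 72.8 with nematodes, against 87.5, 94.2 and 95.97 in controls, with every nematode library below every control. A ferric/cupric reductase (TRINITY_DN21614_c0_g1, best hit in Colletotrichum) averaged 16.2 ± 0.407 with nematodes and 16.3 ± 0.778 in controls (SD, n = 3 each).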
